A study of Mus musculus with 2 samples.

Results

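Rfx6 is a transcription factor of the RFX family that is needed for the formation of pancreatic islet cells and for the function of adult β cells. Of the 23308 genomic peaks of tagged Rfx6 in a mouse β cell line, 776 (3.33%, 95% Wilson interval 3.11 to 3.57%) had their summit in the protein-coding part of an exon and more than 1 kb from every start of a protein-coding transcript. These coding-exon peaks are the subject here. The summit is the position of highest signal in a peak. A further 12 summits in coding bases of the Rfx6 gene itself were left out, since reads of the transfected plasmid may map there, and 870 summits in coding bases within 1 kb of a start were not counted as members. The 776 members lay in 698 genes.

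Min6b1 cells are a mouse β cell line that secretes insulin. In the group HA_Rfx6 the cells were transfected with 24 µg of the plasmid pCMV-Tag2A-3HA-Rfx6, whose name gives a CMV promoter and which makes Rfx6 with an HA tag (3HA-Rfx6), and were harvested 2 days later. The group HA_Ctrl was labelled only as Min6b1 cells, although its growth description repeats that of the transfected cells. In both, DNA was precipitated with the anti-HA antibody 12CA5 and sequenced (ChIP-seq). There was 1 library per group, made from 1 cell line in which the measured protein came from a plasmid, so no value has a replicate error and no test over samples was possible. The HA_Rfx6 library retained 33949757 reads and the control 3567375, and the control was used solely in calling the peaks. Intervals cover counting error alone, and peaks of 1 library are not replicates of a condition. The mRNA levels of the genes named here were not analysed here.

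RFX factors bind the X-box, a DNA element made of a left arm and a right arm that mirror each other around a short spacer. The proteins usually bind as dimers, with each partner contacting an arm. A coding exon has to keep its reading frame, so its sequence is constrained in a way that an intron is not, and bound factors in coding exons share their bases with codons. The strict X-box searched here, on either strand, had a left arm of the form GTNGCC (or, as the other form allowed, GTNACC), a spacer of 0 to 3 bases and then the right arm. The right arm was the classical word GGCAAC or its close relative AGCAAC. The word GGTAAC was accepted as well, and so was the word AGTAAC. A single right arm, on either strand, is called an X-box arm below. A relaxed X-box kept only purines and pyrimidines at most positions of the arms, with a spacer of 1 to 3 bases.

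The members with a strict X-box in the 200 bases around the summit show what an intact element in or next to coding sequence looks like. The 10 of them that held the most reads are printed with 20 bases on each side, on the strand of the gene and in NCBIM37 (mm9) coordinates, with the X-box in capitals.
Hmcn2 (chr2:31208327-31208378): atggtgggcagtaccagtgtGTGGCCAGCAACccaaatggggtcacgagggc
Polr3d (chr14:70839680-70839732): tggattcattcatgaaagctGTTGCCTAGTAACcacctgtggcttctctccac
Zfp143 (chr7:117235382-117235435): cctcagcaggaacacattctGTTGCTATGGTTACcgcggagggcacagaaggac
Zp1 (chr19:10992943-10992996): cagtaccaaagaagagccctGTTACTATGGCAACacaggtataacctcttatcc
Filip1l (chr16:57572063-57572116): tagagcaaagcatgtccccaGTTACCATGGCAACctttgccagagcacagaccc
Tubb2a (chr13:34168447-34168500): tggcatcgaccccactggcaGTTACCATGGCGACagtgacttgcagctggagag
Igdcc3 (chr9:65026255-65026309): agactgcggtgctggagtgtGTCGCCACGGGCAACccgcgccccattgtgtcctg
Odz4 (chr7:103792583-103792635): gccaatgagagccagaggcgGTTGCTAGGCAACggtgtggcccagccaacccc
Ism1 (chr2:139582969-139583022): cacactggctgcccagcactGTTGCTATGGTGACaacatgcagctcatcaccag
Nup210l (chr3:89940796-89940849): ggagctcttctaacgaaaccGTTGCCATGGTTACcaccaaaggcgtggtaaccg
In 9 of these 10 the whole X-box lay in coding bases. The exception was Polr3d, which encodes a subunit of RNA polymerase III. Its X-box (70839700 to 70839712) lay outside the coding exon that held the summit (70839525 to 70839677). These 10 peaks held 63 (Nup210l) to 185 (Hmcn2) reads, and Zfp143 and Polr3d had the highest fold enrichments among them, at 24.2 and 23.8. Zfp143 is a transcription factor, Odz4 a teneurin of the cell surface, Zp1 a protein of the egg coat and Tubb2a a β-tubulin.

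The members with the highest fold enrichment look different. The 200 bases around the summit are shown for the 6 highest, on the strand of the gene, with each X-box arm in capitals.
Son (chr16:91656211-91656410): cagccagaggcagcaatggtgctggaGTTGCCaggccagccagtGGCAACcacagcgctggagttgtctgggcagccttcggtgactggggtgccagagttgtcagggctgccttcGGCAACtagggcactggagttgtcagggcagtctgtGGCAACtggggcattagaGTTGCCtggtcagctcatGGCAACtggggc
D6Ertd527e (chr6:87061623-87061822): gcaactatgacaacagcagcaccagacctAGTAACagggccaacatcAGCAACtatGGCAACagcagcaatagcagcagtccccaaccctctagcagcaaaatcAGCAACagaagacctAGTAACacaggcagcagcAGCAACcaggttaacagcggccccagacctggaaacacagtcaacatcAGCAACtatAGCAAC
Prrt4 (chr6:29120427-29120626): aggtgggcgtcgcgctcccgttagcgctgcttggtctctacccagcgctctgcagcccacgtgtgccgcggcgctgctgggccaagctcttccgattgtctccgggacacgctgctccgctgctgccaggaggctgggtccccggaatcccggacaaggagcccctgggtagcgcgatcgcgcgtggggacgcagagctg
Gp5 (chr16:30308646-30308845): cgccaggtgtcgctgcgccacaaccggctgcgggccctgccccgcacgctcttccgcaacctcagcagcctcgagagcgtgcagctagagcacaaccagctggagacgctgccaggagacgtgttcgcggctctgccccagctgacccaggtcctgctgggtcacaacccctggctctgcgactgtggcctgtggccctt
Pi16 (chr17:29463870-29464069): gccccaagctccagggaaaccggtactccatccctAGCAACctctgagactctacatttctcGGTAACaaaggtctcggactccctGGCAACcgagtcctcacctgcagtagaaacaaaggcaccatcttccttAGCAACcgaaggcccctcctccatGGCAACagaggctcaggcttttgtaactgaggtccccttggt
Col4a2 (chr8:11437944-11438143): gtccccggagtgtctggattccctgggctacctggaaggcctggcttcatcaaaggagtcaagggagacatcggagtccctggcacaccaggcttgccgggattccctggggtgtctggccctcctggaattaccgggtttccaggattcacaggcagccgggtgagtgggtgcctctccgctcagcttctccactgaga
Repeated arms are visible in Son, D6Ertd527e and Pi16, which carried 6, 8 and 5 arms. The windows of Prrt4, Gp5 and Col4a2 held none, and their GC contents were 70%, 68.5% and 61.5%.

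Son encodes a large nuclear protein that works in mRNA splicing. Its peak (chr16:91655244-91657333, plus strand) held 1411 reads at a fold enrichment of 85.9, the most on both measures among the members, and 0.0129% of the whole peak list reached that read number. The fold enrichment is the ratio of reads in the peak to the background expected by the peak caller. The summit lay in coding exon 3 of 12, an exon with 5970 coding bases (91654856 to 91660825). Within the peak of 2090 bases there were 26 X-box arms, or 12.4 per kb, and the commonest spacing between neighbouring arms was 30 bases. The whole exon held 30 arms, or 5.03 per kb. The window around the summit matched itself at 73.2% of positions when shifted by 36 bases, the mark of a tandem repeat.

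D6Ertd527e, a gene named only by an expressed tag, was the next by both measures. Its peak (chr6:87060575-87062757, plus strand) held 1083 reads at a fold enrichment of 65.9 and had its summit in the last of 2 coding exons. This exon has 1375 coding bases and 50 X-box arms (36.4 per kb), most often 18 bases apart. Its peak of 2183 bases held 51 arms, or 23.4 per kb, beside 12.4 per kb in the peak of Son. Both peaks thus combine a dense series of arms with a very high read number.

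A dense series of arms did not always come with a peak. Of all coding segments over 1 kb from starts, 49 held 5 or more arms within some 200 bases, and 5 of these (10.2%) contained a summit. These 5 were in Mll2, D6Ertd527e, Dmkn, Son and Pi16, named after their values were seen. The share was 16.7% of the 24 segments with 6 or more arms and 26.7% of the 15 with 7 or more. For scale, the 776 members stand beside 174132 coding segments with their centre over 1 kb from starts. The share with a summit was therefore far higher in segments with many arms than over all segments. Segment length and GC content were not matched here, and a longer segment has more room for both arms and summits. The part of length in this difference was not tested. The segment of Mll2, a histone methyltransferase, had the most arms within 200 bases (14), but its peak held only 76 reads, at a fold enrichment of 8.24, and 2 arms lay around its summit. In Dmkn, which encodes a secreted skin protein, 7 arms lay around the summit and the peak held 62 reads. Segments of Ncoa6 and Foxp2, also named after their values were seen, with up to 11 and 10 arms within 200 bases, held no summit.

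Among the 10 members with the most reads, Son and D6Ertd527e were followed by Col8a1, a short-chain collagen, with 828 reads. Lynx1, a membrane-anchored modulator of nicotinic receptors, had 698 reads in a peak of 5217 bases. Gp5, a platelet membrane glycoprotein, had 633, and Snapc4, a subunit of the complex that activates small nuclear RNA genes, had 632. Lrfn4, a synaptic adhesion protein, had 604 and Col4a2, a chain of basement membrane collagen, had 600. The list closed with Hspg2, which encodes the basement membrane proteoglycan perlecan, at 576 reads and with Mesdc1 at 572. Of these 10 windows, 5 held no X-box arm, near the 47.7% of all members without one. A GC content of 60% or more was found in 7 of the 10, where all members had a median of 59% and an upper quartile of 62.5%. Read number and fold enrichment parted for some of them: Mesdc1 reached a fold enrichment of 13.3 only, whereas Prrt4 had 509 reads and a fold enrichment of 65.0. By fold enrichment, Gp5 (56.0), Pi16 (42.2), Kif17 (38.1) and Hspg2 (37.2) were among the 10 highest, together with 3 peaks of Col4a2 (38.0, 38.1 and 39.7). Pi16 encodes a secreted peptidase inhibitor and Kif17 a kinesin motor. The lists of 10 by reads and by fold enrichment shared 5 peaks. The FDR that MACS gave, which was mostly larger at higher scores in this list, was 25.3% for 8 of the 10 members with the most reads and for 6 of the 10 with the highest fold enrichment, among them Son and D6Ertd527e. Its median over all members was 3.21%, and 1.83% in the tenth of members with the lowest scores against 5.71% in the tenth with the highest.

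**Figure D1:**
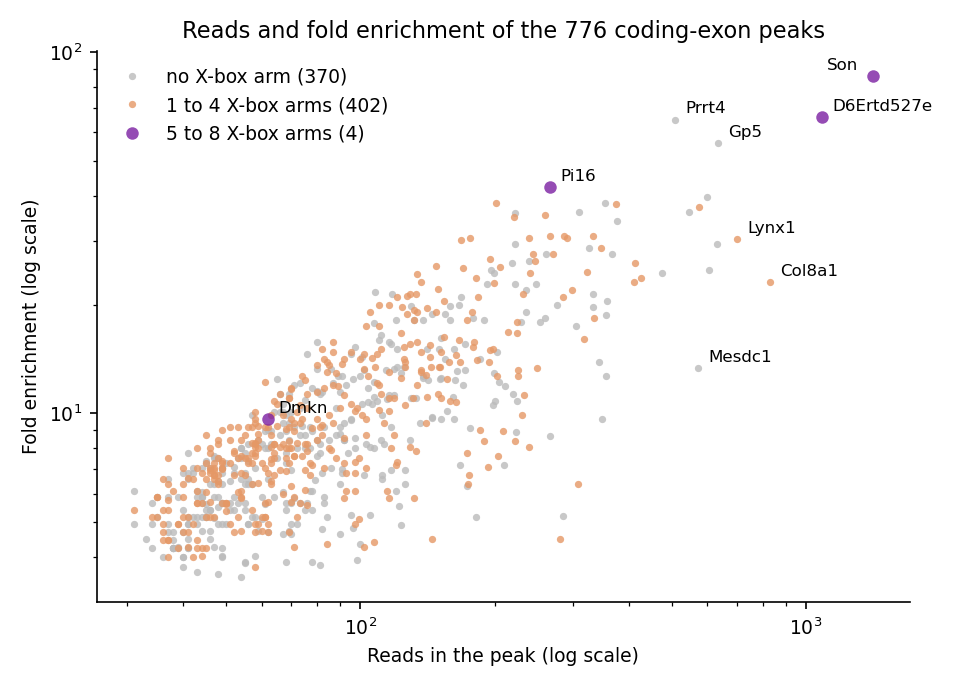
Reads in the peak against fold enrichment for the 776 coding-exon peaks, both on log axes, with 1 point per peak. Colours give the number of X-box arms in the 200 bases around the summit: 370 peaks had none and 4 had 5 to 8 (Son, D6Ertd527e, Pi16 and Dmkn). Son and D6Ertd527e stand at the upper right and Dmkn among the common peaks.

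Most members were far weaker than these. Read numbers ran from 31 to 1411, with a median of 77 and quartiles of 54 and 129. Intronic peaks had a median of 71 reads, and 54.4% of the members (interval 50.9 to 57.9%) were above it. The median fold enrichment was 8.24 in the members and 8.47 in intronic peaks, and 47.0% of the members (43.5 to 50.6%) exceeded the intronic median. A fold enrichment of 20 or more was reached by 9.79% of the members and 9.94% of the intronic peaks. Peaks within 1 kb of a start had medians of 82 reads and 8.94. Coding-exon peaks therefore had slightly more reads than intronic peaks and about the same fold enrichment. Their median length was 1255 bases, against 1188 in introns, so a peak commonly reached well past the exon that held its summit.

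The density of summits asks whether coding bases were hit more often than their number would give. There were 26.6 summits per Mb of coding bases (95% Poisson interval 24.8 to 28.6), over 29.1 Mb. Introns had 9.96 per Mb (9.75 to 10.2), untranslated exons 13.3 (12.1 to 14.5) and intergenic bases 5.37 (5.26 to 5.49), all over 1 kb from starts. The bases within 1 kb of starts had 83.1. Coding bases thus had 2.68 times the summit density of introns (exact interval 2.48 to 2.88) and 2.01 times that of untranslated exons (1.79 to 2.26).

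Coding bases differ from introns in base composition, and GC content moved with this ratio. The 200 bases around the members' summits had a median GC content of 59%, with quartiles of 55.5 and 62.5%. Windows centred on all 174132 coding segments over 1 kb from starts had a median of 49.5%, and 95.7% of the members (94.1 to 97.0%) lay above it. Intronic summits had a median of 52.5%. Summit density rose steeply with GC in coding bases, from 3.06 per Mb at 40 to 50% GC, through 34.7 at 50 to 60% and 87.2 at 60 to 70%, to 236 at 70 to 80%. Coding and intronic densities were then compared at equal GC. At 50 to 60% GC the intronic density was 37.6 per Mb, giving a ratio of 0.92 (0.83 to 1.02), and at 60 to 70% it was 89.1, giving 0.98 (0.85 to 1.13). At 70 to 80% it was 174, giving 1.36 (0.86 to 2.16). At 40 to 50% coding bases had 0.51 times the intronic density (0.34 to 0.72). With the intronic rates of each 10-point GC bin, 834 summits would fall in coding bases, and the 776 found were 0.93 times that number (0.87 to 1.00). With bins of 2 points the ratio was 0.79 (0.73 to 0.84), and with bins of GC and of distance from the nearest start together it was 0.74 (0.69 to 0.79). The excess over introns was therefore present over all bases and not found at matched GC. Against the rates of untranslated exons it was 0.99 (0.92 to 1.06) with bins of 10 points and 0.87 (0.81 to 0.94) with bins of 2 points. Against intergenic rates it was 1.24 (1.16 to 1.33) and 0.99 (0.92 to 1.06), and with distance bins added it fell to 0.90 (0.84 to 0.97) and 0.75 (0.70 to 0.80). The intervals of these ratios to expected numbers are Poisson intervals of the 776 found and take the expected numbers as fixed. They leave out the counting error of the rates, which for untranslated exons rest on 459 summits. How well reads map to each class of bases was not part of the densities or ratios.

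**Figure D2:**
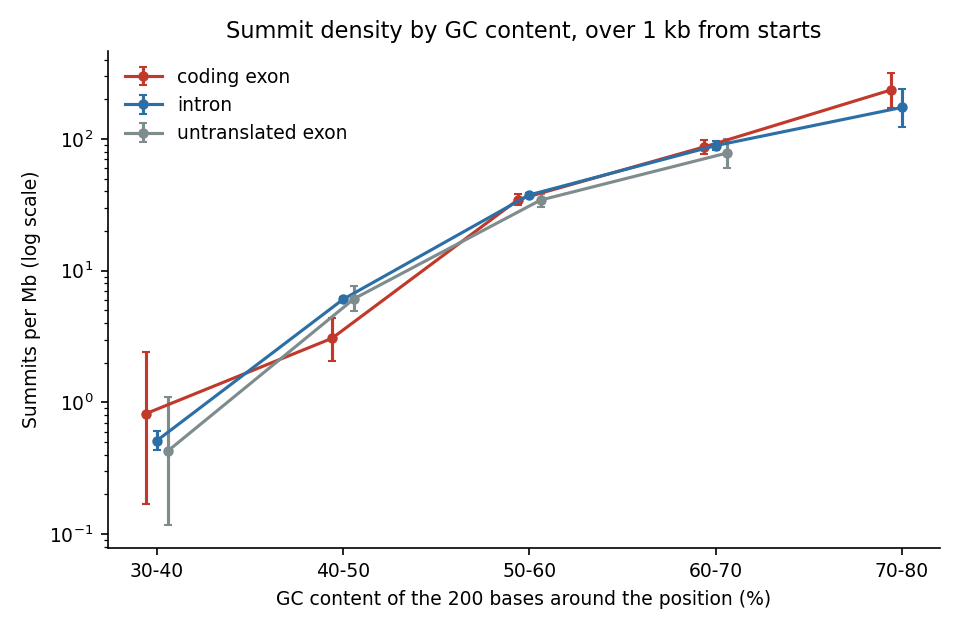
Summits per Mb (log axis) against GC content of the 200 bases around each position, for coding exons, introns and untranslated exons over 1 kb from starts. Points are densities in bins of 10 percentage points and bars are 95% Poisson intervals. Coding exons and introns differ little between 50 and 70% GC, at 34.7 against 37.6 and 87.2 against 89.1 per Mb.

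CpG dinucleotides were also frequent around the members' summits. The ratio of observed to expected CpG had a median of 0.36 in the members, 0.31 at the centres of coding segments, 0.18 in intronic peaks and 0.71 in peaks near starts. The GC box GGGCGG, bound by Sp factors, occurred in 11.7% of the member windows, 11.1% of the windows of all peaks and 4.23% of the intronic windows. It was in 9.998% of coding windows within 2 points of the members' median GC. The difference from coding windows of like GC was 1.73 points (Newcombe interval -0.38 to 4.21). The forkhead word TGTTTAC was in 0.64% of the members and 2.74% of intronic peaks, and the AP-1 word TGANTCA in 2.96% and 6.53%. Coding windows of like GC held these at 0.71% and 3.00%, close to the members. TAATTA, a homeodomain word, was in 0.52% of the members, 2.42% of intronic peaks and 0.15% of coding windows of like GC. CCAAT was in 15.7%, 16.9% and 17.2%, CANNTG in 71.6%, 71.3% and 74.2%, and its special case CAGATG in 16.8%, 19.2% and 19.3%. The CTCF core was in 0.52%, 0.41% and 0.59%, and TGACGTCA in 0.13%, 0.21% and 0.26%. Over all peaks the shares were 2.45% for TGTTTAC, 5.64% for TGANTCA, 2.02% for TAATTA and 16.9% for CCAAT. They were 67.2% for CANNTG, 16.1% for CAGATG, 0.44% for the CTCF core and 0.29% for TGACGTCA.

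Strict X-boxes were rare in the members. They were found in 19 of 776 windows (2.45%, 1.57 to 3.79%), against 6.42% of all peaks, 6.27% of intronic peaks and 4.58% of peaks on untranslated exons. The difference from intronic peaks was -3.82 points (Newcombe interval -4.84 to -2.39). Windows placed 1 kb to the left and right of the same summits held 0.13% and 0.26%, and coding windows of like GC held 0.26%. Coding windows weighted to the GC distribution of the members, a weighting chosen after the values were seen, would give 0.24%. At 50 to 60% GC the shares were 2.86% in members and 5.43% in intronic peaks, a difference of -2.57 points (-3.94 to -0.42), and at 60 to 70% they were 1.08% and 3.95%, a difference of -2.87 points (-4.82 to -0.48). At 40 to 50% GC the order was the opposite, 13.3% (4 of 30 members) and 8.44%, with an interval of the difference that holds 0 (-3.22 to 21.3 points). At 70 to 80% neither class had any, among 45 members and 37 intronic peaks. The 19 members held 20 strict X-boxes, as Sec31a, which encodes a coat protein of transport vesicles, had 2. Their median distance from the summit was 14.5 bases and 17 were within 50 bases. A spacer of 2 bases was the commonest, in 11 of the 20. It was also the commonest among all strict X-boxes wholly in coding bases over 1 kb from starts, where 160 had it. Of those 160, 5.6% (2.99 to 10.3%) had a summit within 100 bases, against 7.69% (3.03 to 18.2%) with a spacer of 1. The shares were 1.19% (0.21 to 6.44%) with a spacer of 0 and 2.97% (1.02 to 8.37%) with a spacer of 3. All these intervals overlap one another, so no preference for a spacer is concluded. Members with a strict X-box had a median of 63 reads and the others 78, with median fold enrichments of 8.53 and 8.24.

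Seen from the DNA, coding exons over 1 kb from starts contained 438 strict X-boxes, of which 20 (4.57%, 2.98 to 6.95%) had a summit within 100 bases. The share was 6.13% (5.68 to 6.61%) of 10179 in introns and 28.5% (25.8 to 31.3%) of 1042 within 1 kb of starts. The intervals of coding and intronic X-boxes overlap, whereas X-boxes near starts had a summit nearby several times as often as either. By codon, 208 of the X-boxes lying wholly in coding bases began at codon position 1, 113 at position 2 and 76 at position 3. Of these, 3.37%, 5.31% and 5.26% had a summit within 100 bases, with intervals that overlap one another.

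X-box arms were frequent. At least 1 arm was present in 406 of the 776 windows (52.3%, 48.8 to 55.8%). This stands beside 60.9% of all peaks, 64.1% of intronic peaks, 48.9% of peaks within 1 kb of a start and 22.3% of coding windows of like GC. The share was lower than in intronic peaks by 11.7 points over all windows. At 50 to 60% GC it was 59.4% in members and 60.7% in intronic peaks, a difference of -1.31 points (-6.24 to 3.47). The word GTTGCC with its complement GGCAAC, the arm of the classical X-box and a subset of the arms counted above, was in 25.6% of members (22.7 to 28.8%), 26.8% of all peaks, 26.8% of intronic peaks and 8.46% of coding windows of like GC. It exceeded these coding windows by 17.2 points (14.2 to 20.4), and coding windows weighted to the members' GC distribution would give 7.95%. At least 1 arm would be in 21.8% of windows weighted in that way. Relaxed X-boxes were in 41.6% of members, beside 45.9% of all peaks and 24.2% of coding windows of like GC. At least 2 arms were present in 15.6% of members, beside 23.8% of all peaks and 14.8% of peaks within 1 kb of a start.

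Arms gathered at the summit itself. Within 50 bases of members' summits there were 4.37 arms per kb, and at 400 to 500 bases on both sides 1.43 per kb, a ratio of 3.05. Intronic peaks had 6.87 and 1.54 per kb, a ratio of 4.45. Their profile rose to 8.55 per kb in the 25 bases next to the summit, where the members had at most 4.64. The members therefore had a lower and flatter rise of arms over a like background.

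**Figure D3:**
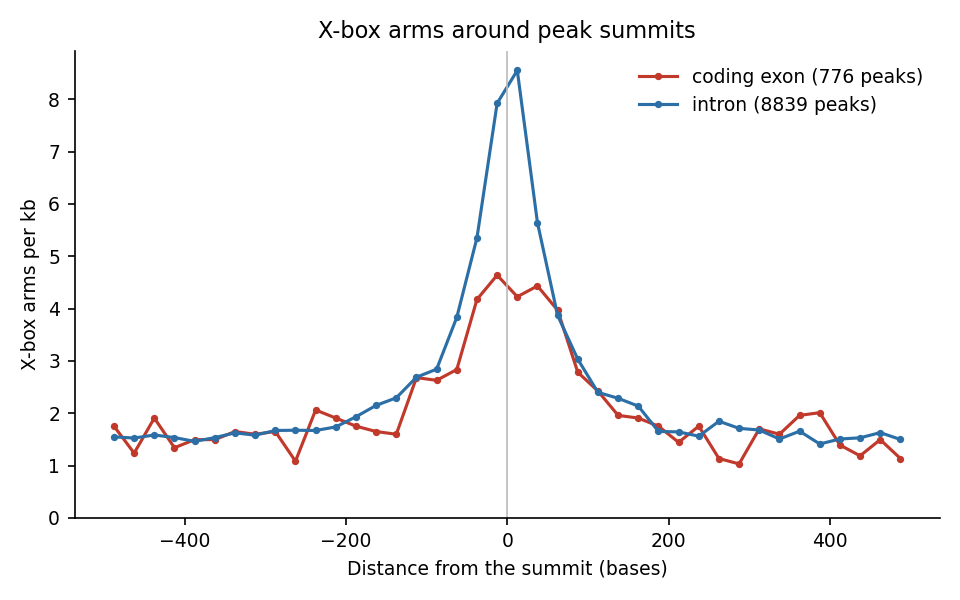
X-box arms per kb against distance from the summit in bases, in bins of 25 bases, for 776 coding-exon and 8839 intronic peaks. Both curves lie near 1.5 per kb away from the summit, and they rise to 4.64 and 8.55 per kb in their highest bins.

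The density of summits rose with the number of arms in coding and in intronic bases alike. Coding positions with no arm in the surrounding 200 bases had 17.0 summits per Mb (15.3 to 18.8). With 1 arm the density was 45.3, with 2 arms 104, with 3 arms 148 (80.9 to 248) and with 4 or more arms 586 (281 to 1078), the last resting on 10 summits in 0.0171 Mb. The intronic densities were 4.76, 18.02, 56.9, 167 and 507 per Mb. The classes thus differed most without arms and had overlapping intervals from 3 arms on. At 50 to 60% GC, positions without an arm had 18.7 summits per Mb in coding bases and 19.3 in introns, with 1 arm 65.4 and 71.1, and with 2 or more 197 (157 to 245) and 261 (247 to 276). Arms and GC content therefore each moved with summit density, and coding positions of like GC with several arms were below intronic ones.

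**Figure D4:**
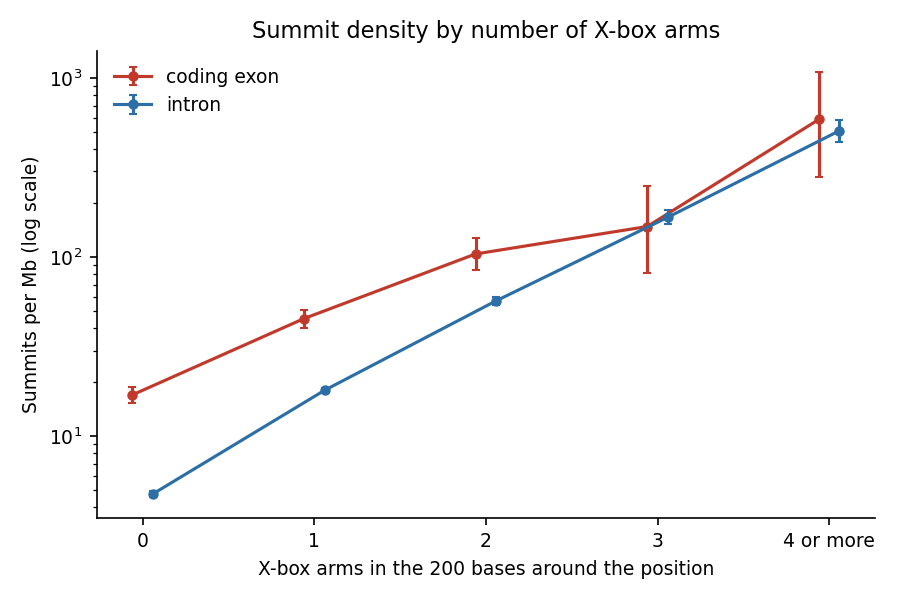
Summits per Mb (log axis) against the number of X-box arms in the 200 bases around each position, for coding exons and introns over 1 kb from starts. Points are densities and bars 95% Poisson intervals. Density rises from 17.0 to 586 per Mb in coding exons and from 4.76 to 507 per Mb in introns.

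The arm GGCAAC, read on the strand of the gene, most often begins a codon, and its place relative to the codons was compared with summits. Coding bases contained 7065 GGCAAC and 4880 GTTGCC on the gene strand, of which 1.19% (0.96 to 1.47%) and 0.96% (0.73 to 1.28%) lay within 50 bases of a member's summit. For GGCAAC the shares were 1.16%, 1.01% and 1.41% at codon positions 1, 2 and 3. For GTTGCC they were 0.66% (0.41 to 1.07%), 2.03% (1.27 to 3.23%) and 0.87% (0.52 to 1.45%), the position 2 value resting on 17 of 837. Among these 6 shares, only the intervals of GTTGCC at positions 1 and 2 failed to overlap. The comparison was chosen with the values in view and was not adjusted for the number of shares.

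All 6-base words were also compared between member windows and coding windows. Among words in at least 5% of the members, the 10 with the highest ratio to all coding windows each contained CG, led by CCGCGC (8.51% against 1.28%). Against coding windows of like GC, CCGCGC again led (2.28%, a ratio of 3.72), and 4 of the 10 words overlapped an X-box arm. These were GTTGCC (ratio 3.03), GGTTGC (2.79), GTTGCT (2.62) and GTTACC (2.58). The windows of like GC all lie near the members' median, while the members run from 38.5 to 77.5% GC, so the part of GC content in the ratios of the CG-containing words was not tested.

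The place of a member in the coding sequence was taken from the exon that held its summit. Internal coding exons held 535 members (68.9%, 65.6 to 72.1%), last coding exons 138 (17.8%, 15.3 to 20.6%), first coding exons 49 and single coding exons 54. Internal coding exons make up 74.2% of the coding bases and last ones 17.4%, so internal exons held a smaller share of the members than of the bases and last exons about the same share. First and single exons make up 4.03% and 4.34% of the bases and held 6.31% (4.81 to 8.25%) and 6.96% (5.37 to 8.97%) of the members. Densities were 24.7 summits per Mb in internal exons and 27.2 in last ones, and 41.8 (30.9 to 55.3) and 42.8 (32.1 to 55.8) in first and single exons. The median GC content of the members in these classes was 58.0%, 60.8%, 63.5% and 61.8%, in the same order. Density also rose with exon length, from 17.0 per Mb (13.2 to 21.6) in exons with under 100 coding bases to 42.4 (34.98 to 51.0) in those of 500 to 1000, and was 30.1 in longer ones. The mean GC content of these length classes was 46.3%, 52.2% and 51.1%. The part of GC content in these differences was not tested.

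Density fell with distance from the nearest start in every class. Coding bases had 48.3 summits per Mb at 1 to 2 kb (39.97 to 57.9) and 15.2 beyond 50 kb (11.5 to 19.7), and introns had 20.3 and 6.20. The ratio of coding to intron remained between 1.91 and 2.45 in the 6 distance bins. Within introns, the 50 bases next to a coding exon had 17.4 summits per Mb (15.3 to 19.6), and bases over 3200 from one had 9.12. The intronic bases next to the exon had a mean GC content of 46.9%, and at the intronic rates of their GC they would have held 363 summits in place of 260. The members nearest to the 1 kb limit were in Fbxl15 (1011 bases from a start, 138 reads), Col5a1 (1014 bases, 156 reads) and Adamts19 (1021 bases, 62 reads). Just outside the limit were summits in coding bases of Acp5 (995 bases, 69 reads), B3gat2 (988 bases, 150 reads) and Maml3 (987 bases, 104 reads).

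Genes with a member often had other peaks. Of the 698 genes, 38.5% (35 to 42.2%) also had a summit within 1 kb of one of their starts, against 24.9% of the 19467 genes with coding bases over 1 kb from starts. Genes with an intronic peak had such a summit in 40.4% (38.9 to 41.9%), an interval that overlaps that of genes with a member. An intronic summit was present in 42.8% of them (39.2 to 46.5%) and in 20.8% of all. Gene length and GC content were not matched in these shares. The nearest other summit was within 5 kb for 38.9% of members (35.6 to 42.4%) and for 33.6% of intronic peaks. Peaks on untranslated exons were like the members in this, at 39.7% (35.3 to 44.2%). By chromosome the density ran from 9.69 per Mb on chromosome 13 to 41.7 on chromosome 15 among autosomes, and was 5.63 (2.07 to 12.3) on X, with 6 members.

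A single member was found in 640 genes, 2 in 47 and 3 or more in 11. Col4a2 (ENSMUSG00000031503.7, chr8:11312805-11449287, plus strand) had 9, where the coding rates at its GC would give 0.27. They lay in coding exons 18, 21, 23, 24, 27, 28, 29, 30 and 33 of 47, with 547, 65, 80, 375, 354, 60, 90, 152 and 600 reads. Between the first and the last of these summits, over 22.6 kb, coding bases made up 8.83% of the sequence, and each of the 9 summits there was coding. Neighbouring summits were 1.65 to 5.87 kb apart. The coding summits themselves set the ends of this stretch, so both end summits are coding by construction and nothing is concluded from the count. Intronic summits lay just outside it on both sides, at 99.6 and 132 kb from the start of the gene. The gene had 17 summits in all, of which 6 were intronic and 1 was near its start. An X-box arm was in 2 of the 9 member windows, beside 52.3% of all members, and nothing is concluded from so few. The GC contents of the 9 windows ran from 57 to 63%. Placing peaks by their middle in place of the summit left 6 members in Col4a2.

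**Figure D5:**
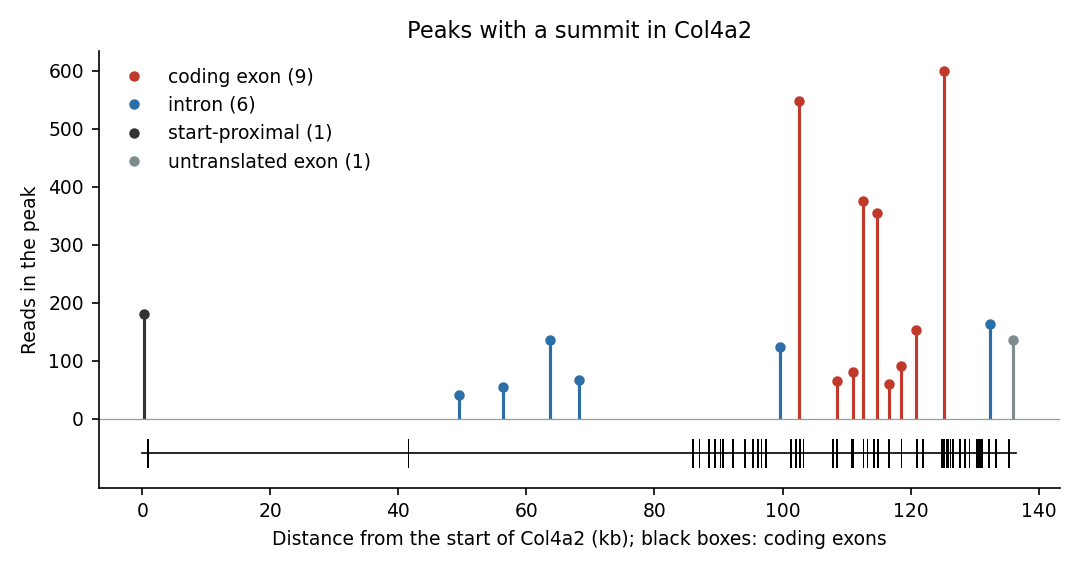
Peaks with a summit in Col4a2, as reads in the peak against distance from the start of the gene in kb. Each stem is 1 peak, coloured by the class of its summit, and black boxes under the axis are coding exons. The 9 coding-exon summits, with 60 to 600 reads, lie between 102.62 and 125.24 kb.

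Hspg2 had 5 members (58 to 576 reads, 0.94 expected) and Spnb5, a β spectrin, had 4 (75 to 198 reads, 0.52 expected). The genes with 3 were Lgr6, a receptor for R-spondins, Rapgef3, an exchange factor activated by cyclic AMP, Col4a1, Megf6, Col5a1, Adamts14, a procollagen protease, Igsf9b, a synaptic adhesion protein, and Numa1, a protein of the mitotic spindle. Each would have had under 0.3 at the coding rates of its GC. Members of 1 gene share a locus and are not independent.

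Gene families were compared by members per Mb of coding bases and by the number that the coding rates at their GC would give. Of the 33 lists, 29 had a 95% Poisson interval of the ratio of found to expected that held 1, and 7 lists had no member. Collagens, the fibrous and sheet-forming proteins of the matrix, had 27 members in 13 of 43 genes, 142 per Mb (93.8 to 207), against 5.87 expected. The ratio was 4.6 (3.03 to 6.69), and without Col4a2, singled out after its values were seen, 3.21 (1.90 to 5.08). Of the 27 windows, 11 held an X-box arm (40.7%, 24.5 to 59.3%), an interval that holds the 52.3% of all members. A strict X-box was in 1 of the 27, beside 2.45% of all members. Zinc finger proteins, a large group chosen by gene symbol, had 7 members in 400 genes, against 17.6 expected (ratio 0.40, 0.16 to 0.82). Plexins and semaphorins, which guide axons and cells, had none in 29 genes (4.35 expected), and ABC transporters none in 50 (3.89 expected). The 33 lists were not adjusted for their number. Integrins had 5 members (1.97 expected), ADAM and ADAMTS proteases 7 (3.78), laminins 3 (2.11), solute carriers 14 (14.4), potassium channels 5 (5.02) and myosin heavy chains 7 (7.05). Olfactory receptors had none, at 0.33 expected.

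Over all genes with coding bases over 1 kb from starts, 3.59% had a member, and the lists of β cell genes were read against that share. Of the 38 insulin secretion genes, 2 (5.26%) had a member each (3.08 expected). They were in Cacna1a, a pore subunit of P/Q-type calcium channels (coding exon 20 of 47, 46 reads, fold enrichment 5.18), and Adcy5, an adenylyl cyclase (coding exon 2 of 22, 113 reads, fold enrichment 9.43). Among 33 genes of islet transcription factors, 1 (3.03%) had a member. It was Insm1, a zinc finger factor of endocrine cells, hit in its single coding exon (95 reads, fold enrichment 14.6), where the GC content of 77.5% was the highest value among the members. The disallowed list held 11 genes, a part of the larger set that β cells keep silent. These 11 genes and 33 genes of the cilium and other RFX targets had no member, at 0.21 and 1.24 expected. Peaks of these genes outside coding exons were not counted here. Voltage-gated calcium channel genes had 6 members in 6 of 26 genes (23.1%, 3.83 expected, ratio 1.57, 0.58 to 3.41), in Cacna1a, Cacna1b, Cacna1g, Cacna1i, Cacna1s and Cacnb1. In the RFX family, Rfx1 had 1 member in coding exon 1 of 20 (54 reads, fold enrichment 6.12), with 3 X-box arms in its window. The numbers expected from GC content lay within counting error of these counts, and with so few members a difference from them was not detectable.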

How the data were processed

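Anti-HA ChIP-seq was carried out on Min6b1 cells with and without 3HA-Rfx6, with 1 library of 50-base reads each. Per the labels, the submitters' processing notes name CASAVA 1.8.2, Bowtie and MACS 1.4.2. Per the file header, MACS used a p-value cutoff of 1e-05, a band width of 300 and at most 1 read per position, and 49443917 ChIP and 16911298 control reads gave 33949757 and 3567375 retained reads. For each peak the authors deposited the count of ChIP reads, not normalized, the fold enrichment (a ratio to the background that MACS expected), an FDR as a percent and a score, which is -10 times the log10 p-value. The FDR was reported but selected no peak, since it was mostly larger at higher scores. The ChIP library retained 9.52 times as many reads as the control, which limits the background behind each fold enrichment.

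From these, summits (peak start plus summit offset minus 1) were placed on NCBIM37 (mm9) and GENCODE M1. Classes were assigned in the order start (within 1 kb), coding, untranslated exon, intron and intergenic. Each member was numbered on the transcript with the longest coding sequence that holds its summit. GC content, CpG and motifs were taken from the 200 bases around the summit. Overlapping segments and genes cannot be told apart by position. Densities are summits per Mb of reference bases of the class, and expected numbers are the rates of GC bins (10 or 2 points; genes and families, 2 points) applied to the bases concerned. Shares have Wilson intervals, differences Newcombe intervals, densities Poisson intervals and ratios of densities exact conditional intervals, all at 95% and for counting error alone. Ratios of found to expected numbers have Poisson intervals of the found number, with the expected number taken as fixed. The computations ran in Python 3.11.15 with scipy 1.17.1, pandas 2.3.3 and numpy 2.4.6, plotted with matplotlib 3.10.9, and the search and the densities were tested on simulated data.

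Genes were named by a rule: the 10 members with the most reads, the 10 with the highest fold enrichment, the 10 with a strict X-box that held the most reads, the 10 genes with the most members (with 1 more at a tie of 3), the members of the insulin secretion, islet factor and disallowed lists, and those at the 1 kb limit. Sec31a, Rfx1, the calcium channel genes beside Cacna1a, Mll2, Dmkn, Ncoa6 and Foxp2 fall outside this rule and were named after their values were seen. The members, gene lists and motifs were chosen with earlier results of these data known. Alternatives were stricter peak sets (by score or fold enrichment), the middle of the peak, a limit of 5 kb, starts of all transcripts, coding segments of protein-coding transcripts only, a window of 100 bases, a relaxed X-box and matching for GC. RNA-seq was not analysed here.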

Additional observations from a re-analysis of the deposited data

How the results depend on the processing

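The 50% of peaks with the highest score held 415 members, those with a fold enrichment of at least 10 held 289, and a limit of 5 kb left 479. In the first set the coding to intron density ratio was 2.97, the medians were 123 reads and a fold enrichment of 12.4, the strict X-box difference from introns was -4.91 points and 4 genes had 3 or more members. In the second set the medians were 138 reads and 14.6, the difference was -6.29 points and 1 gene had 3 or more, namely Col4a2 with 7. Selection on score or fold enrichment raises these medians by construction. With the 5 kb limit the density ratio was 2.42 and 6 genes had 3 or more. The middle of the peak kept 523 of the 776 members among 724 and left 3 genes with 3 or more, so these clusters depend on how a peak is placed. The relaxed X-box gave a share of 41.6% and a difference of -5.41 points. The density ratio turned below 1 at matched GC, to 0.93 with bins of 10 points and, in alternatives chosen after seeing the data, to 0.79 with bins of 2 points and 0.74 with distance bins added. The strict X-box share stayed below that of intronic peaks in each alternative run, and the density ratio stayed above 1 in each without matching for GC. In all, 42 of 62 values stayed within counting error of the reported value, or within 1.5 times for a count. No paired analysis was possible because each group is a single library, and for the same reason no replicate could be left out. The depth of the control, 3567375 retained reads, limits the fold enrichments, and whether a peak would recur in a further library was not measured.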
